A study of Mus musculus with 15 samples.

Results

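Renca tumors formed by the *Pbrm1* knockout clone #4 were compared with control Renca tumors across the transcriptome. Renca is a murine renal cell carcinoma line of BALB/c origin, and the cells were injected under the skin of female BALB/c mice aged 4 to 6 weeks in Matrigel, a basement membrane gel. Bulk RNA was sequenced from 5 tumors of clone #4 and 5 control tumors, and 5 tumors of a second knockout clone, #18, served only to show where clone #4 differed from it. *Pbrm1* was disrupted by transient CRISPR/Cas9 editing with a repair plasmid carrying puromycin resistance and red fluorescent protein, and each knockout line grew from 1 sorted cell. The labels call the control cells parental, whereas the study describes control knockout cells. Because every group is 1 line, the 5 tumors of a group are replicate tumors, and *Pbrm1* genotype and cell line cannot be told apart. Mice of the study were left untreated or given PD-1 antibody, the labels do not say which tumors came from which, and tumors were taken at a size limit, on ulceration or on signs of distress. All genes with a mean of at least 10 normalized read counts over these 10 tumors were included, which gave 16432 of 18279 genes in the table, while 1847 genes lay under that minimum.

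PBRM1 is a bromodomain subunit of PBAF, a form of the SWI/SNF complexes that use the ATPase BRG1 (*Smarca4*) to move nucleosomes and so open or close stretches of chromatin. The gene is among the most often mutated in clear cell renal cell carcinoma. Loss of a SWI/SNF subunit can lower some genes and raise others, and in a tumor it can act on the cancer cells and, through what they secrete, on the cells around them.

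Sequencing gave 37763097 to 49099168 reads on genes per tumor over the 10 tumors compared, and the 10 most abundant genes took 7.43% to 12.2% of them. By principal components, the groups parted along the first (39.9% of the variance), and along the second (16.3%) tumors 6 and 10, both of clone #4, took opposite ends. Markers of the labelled tissue were present: *Krt8*, a simple epithelial keratin, averaged 59687 in control and 51995 in clone #4, *Cdh16*, the kidney cadherin, 24537 and 21658, and *Pax8*, a transcription factor of the renal lineage, 3715 and 3384. Of 28 renal tubule genes, 18 were in the table, and those of differentiated segments such as *Umod* and *Slc34a1* were not among them.

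*Pbrm1* itself, the targeted gene (ENSMUSG00000042323, chromosome 14, 31019138 to 31121592, plus strand, GRCm38), was measured first. Control tumors 1 to 5 had 9704, 9871, 8959.7, 7452 and 9075 normalized read counts, and clone #4 tumors 6 to 10 had 2686, 2709, 2807, 2484 and 3068. Every clone #4 tumor lay below every control tumor, and clone #4 kept 30.5% of the control mean (9012 ± 956, SD, n = 5, against 2751 ± 213, n = 5). *Pbrm1* fell by 1.71 on the log2 scale (SE 0.08, adjusted p = 4.9e-07, limma), and in the exact two-sided permutation test p was 0.00794, the smallest that 5 against 5 tumors allow. Host cells in a bulk tumor carry intact *Pbrm1*, and transcripts of an edited allele can still be counted, and the part of either in the remaining reads was not tested. Of the 22 SWI/SNF subunits tested, 3 were called lower, the edited *Pbrm1* itself, *Smarcd2* and *Phf10*, and 1 higher, *Actl6a*. Among all genes 10.9% were called lower and 7.95% higher, so these counts do not set the complex apart. *Smarcd2*, a subunit of the core module, fell by 0.60 (SE 0.05), *Phf10*, which belongs to PBAF like *Pbrm1*, fell by 0.44 (SE 0.08), and *Actl6a*, an actin-like subunit, rose by 0.20 (SE 0.04). The other PBAF genes *Arid2* (log2 difference -0.05, SE 0.10) and *Brd7* (-0.13, SE 0.05) and the ATPase gene *Smarca4* (0.04, SE 0.09) did not pass the test.

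Across the transcriptome, 3102 of 16432 genes (18.9%) passed the test at an adjusted p of 0.05, with 1306 (7.95%) higher and 1796 (10.9%) lower in clone #4. The median log2 difference of all genes was -0.0043. Most changes were small. The median log2 difference was 0.39 among genes called higher and -0.50 among genes called lower. Large changes were mostly losses: 483 genes fell and 132 rose by more than 2-fold, and 93 fell and 7 rose by more than 8-fold. In 1047 genes (6.37%) the lowest clone #4 tumor exceeded the highest control tumor, and in 1430 genes (8.7%) the highest clone #4 tumor lay under the lowest control tumor. The median SD between tumors was 0.17 on the log2 scale in control and 0.18 in clone #4.

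**Figure D1:**
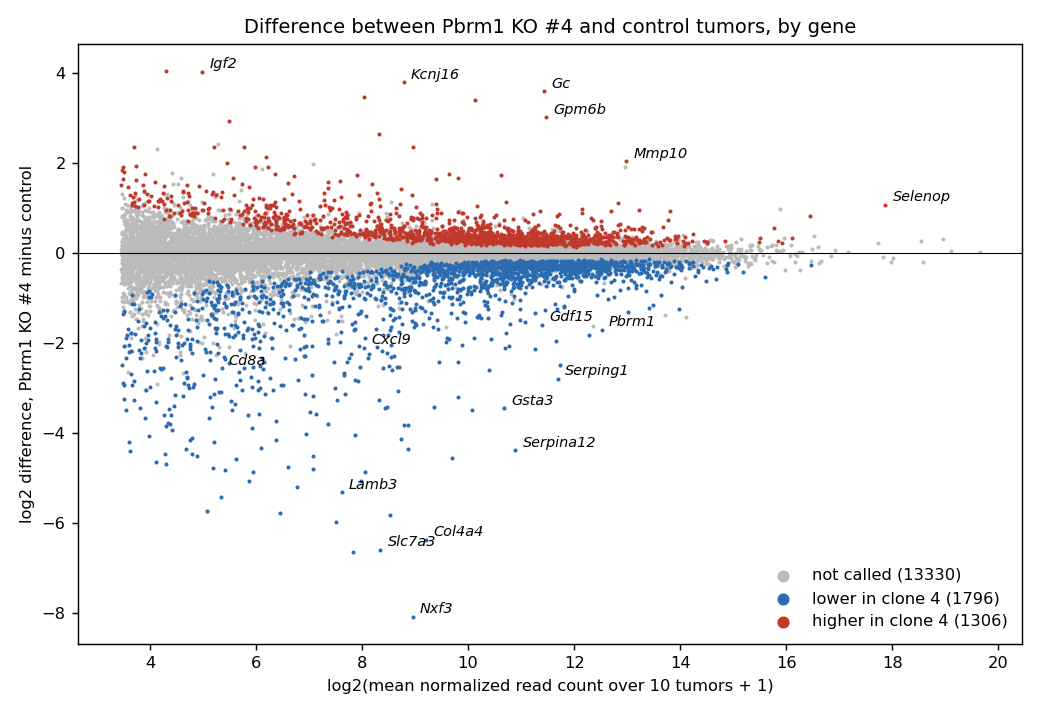
Log2 difference of each gene, clone #4 minus control (y), against the log2 of its mean normalized read count over the 10 tumors plus 1 (x), for 16432 genes. Genes called lower (1796, blue) reach differences below -6, whereas those called higher (1306, red) stay under about 4, and *Pbrm1* lies at -1.71.

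The deepest losses brought genes that control tumors clearly expressed close to 0. *Nxf3*, an X-linked member of the nuclear RNA export factor family, had 1006, 1148, 978, 1082 and 703 normalized read counts in the control tumors and 0, 3.8, 0, 13.7 and 7.8 in clone #4. Its log2 difference of -8.07 (SE 0.68, adjusted p = 1.5e-05) was the largest among the genes whose groups did not overlap. *Slc7a3*, a transporter of cationic amino acids, had 7.0, 1591, 589, 949 and 95.2 counts in control tumors and 2.9, 0, 1.0, 2.3 and 2.2 in clone #4. It fell by 6.59 (SE 1.19, adjusted p = 0.0028, but 0.055 with unequal variances), and tumor 1 was almost as low as clone #4, so that the control tumors spread far more widely than those of clone #4. *Wfdc1*, a secreted protein of the whey acidic protein family, spread alike (54.5, 1003, 383, 788 and 38.1 in control, 0 to 6.7 in clone #4) and fell by 6.64 (SE 0.95). *Cdhr5*, a protocadherin of the brush border, had 229.8 to 618 counts in control tumors and 1.0 to 14.5 in clone #4, and it fell by 5.96 (SE 0.50). *Hephl1*, a copper-dependent ferroxidase, had 27.9, 81.0, 50.1, 147 and 22.2 counts in control tumors and no read in any clone #4 tumor. Against a floor of 3 reads over the group it was at least 106-fold lower. Of the genes tested, 4 had no read in any clone #4 tumor and reads in every control tumor (*Hephl1*, *Gm45056*, *Gm5624* and *Spink8*, the last 3 named after their values were seen), and no gene showed the reverse pattern. *S1pr5*, a receptor for sphingosine 1-phosphate, had 52.0 to 92.0 counts in control tumors and 0 to 2.2 in clone #4, and fell by 5.42 (SE 0.39).

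**Figure D2:**
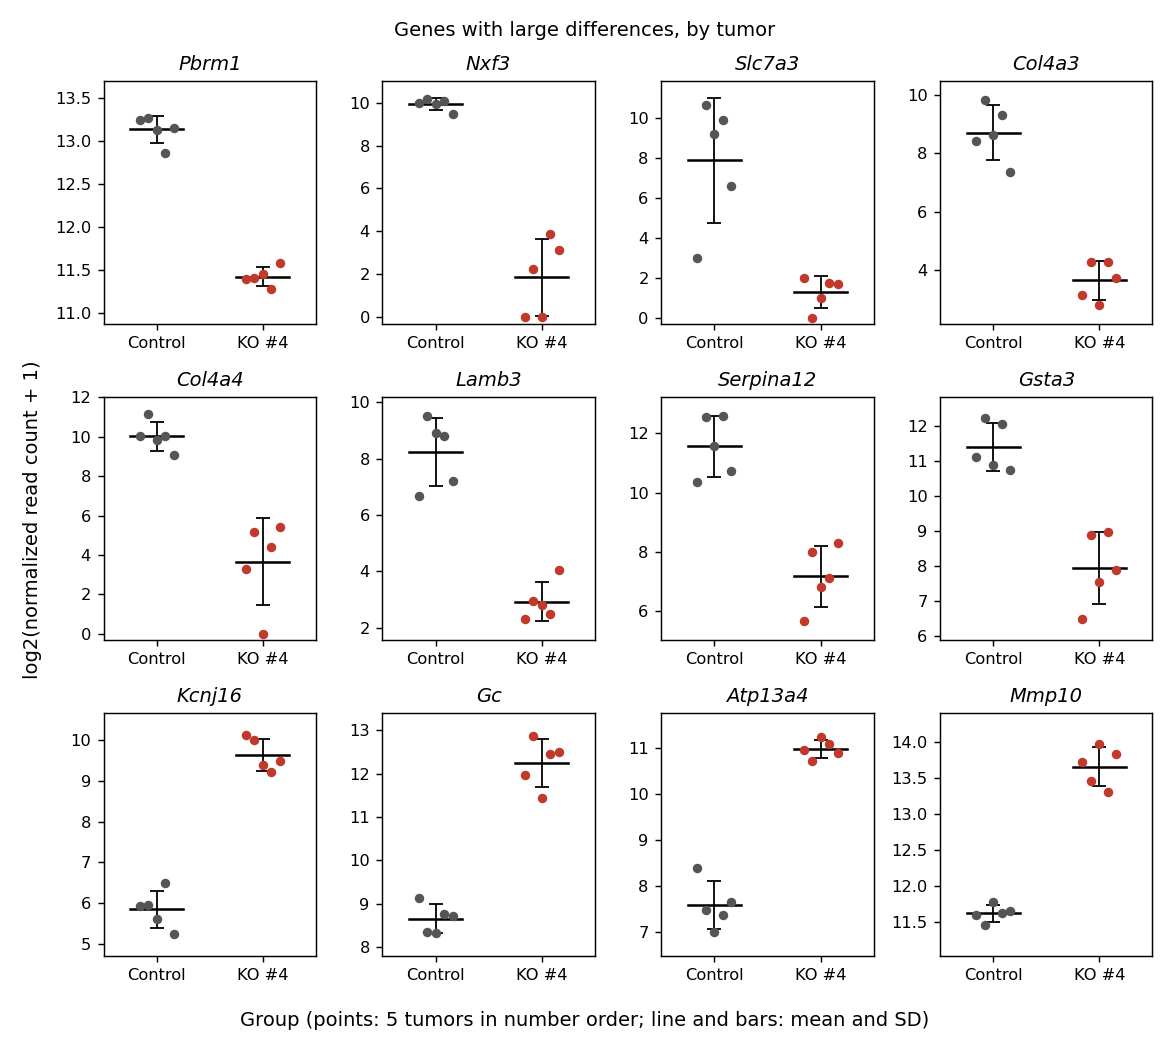
Log2 of the normalized read count plus 1 (y) in each of 5 control and 5 clone #4 tumors (x) for 12 genes with large differences, with mean and SD. In every panel the groups do not overlap, and in *Slc7a3* and *Serpina12* the control tumors spread widely.

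Basement membrane genes were among the deepest losses. Basement membranes are sheets of laminin and type IV collagen under epithelia, and kidney glomeruli use the collagen chains encoded by *Col4a3*, *Col4a4* and *Col4a5* in place of the common *Col4a1* and *Col4a2* chains. *Col4a4* had 1041, 2269, 919, 1052 and 532 counts in control tumors and 8.7, 34.4, 0, 20.5 and 42.3 in clone #4, and fell by 6.37 (SE 0.86, adjusted p = 0.00043). *Col4a3* had 340.0, 904, 396, 635 and 162 counts in control and 7.7, 18.2, 6.0, 18.2 and 12.3 in clone #4, and fell by 5.07 (SE 0.44, adjusted p = 1.8e-05). For both chains tumor 2 was the highest control tumor and tumor 5 the lowest, and no clone #4 tumor reached the control range. The genes lie head to head on chromosome 1: *Col4a3* runs on the plus strand from 82586921 to 82722059 and *Col4a4* on the minus strand from 82448423 to 82586849 (GENCODE M21, GRCm38), and their starts are 72 bases apart. *Col4a5* fell by 2.36 (SE 0.74, adjusted p = 0.045) with overlapping groups. *Col4a1* (log2 difference 0.26, SE 0.22) and *Col4a2* (0.26, SE 0.24) did not pass the test.

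The laminin chain *Lamb3*, a part of epithelial laminin, had 102, 733, 485, 444 and 148 counts in control tumors and 3.9, 6.7, 6.0, 4.6 and 15.6 in clone #4. It fell by 5.31 (SE 0.53, adjusted p = 4.7e-05), and no clone #4 tumor reached the control range. The model of *Lamb3* overlaps that of *Hsd11b1*, which regenerates active glucocorticoid, on the opposite strand of chromosome 1 (193207699 to 193343878 and 193221634 to 193264075). *Hsd11b1* had 403 to 1175 counts in control tumors and 0 to 62.4 in clone #4 and fell by 5.82 (SE 0.87), and since the strand of counting is not given in the sources used here, reads shared by this pair cannot be told apart. In all, 5 of the 22 basement membrane genes tested were called lower and none higher, against 10.9% and 7.95% of all genes. Their median log2 difference of 0.04 was near that of all genes. The count lower stayed at 4 or 5 with any 1 tumor left out, and 1 was called higher without tumor 1.

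Among genes with a mean of at least 1000 counts, the largest falls were as follows. *Serpina12*, which encodes the serpin vaspin, had 1319.5, 6010.2, 3035, 6105 and 1679 counts in control tumors and 50.1, 253, 112, 136 and 311 in clone #4, and fell by 4.38 (SE 0.54, adjusted p = 0.00021). *Gsta3*, a glutathione S-transferase, had 2202, 4811, 1872, 4260.2 and 1702 counts in control and 88.7, 473, 185, 502 and 234 in clone #4, and fell by 3.45 (SE 0.46). Both genes were highest in control tumors 2 and 4, and no clone #4 tumor reached the control range. *Apol6*, an apolipoprotein L gene, fell by 3.49 (SE 0.30) to 9.59% of the control mean, *Akr1c18*, a hydroxysteroid dehydrogenase, by 2.48 (SE 0.41), *Anxa8*, a calcium-dependent membrane-binding annexin, by 2.13 (SE 0.34), *2310043M15Rik* by 2.59 (SE 0.21), and *Gpr141*, an orphan receptor, by 2.11 (SE 0.24). *Heph*, the ferroxidase relative of *Hephl1*, had 2808 ± 209.6 counts in control and 692 ± 179 in clone #4 and fell by 2.06 (SE 0.16, adjusted p = 7.7e-06).

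The control tumors were not alike for the lost genes. In 60 of the 93 genes that fell more than 8-fold (64.5%), tumors 2 and 4 were the highest of the 5 controls, against 14.2% of all genes tested and 8.65% of the genes called higher. These 93 genes were chosen by their fall, to which high control tumors add, so the share is a description. Their median mean was 112 counts in control, 6.76 in clone #4 and 9.36 in clone #18.

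Fewer genes rose strongly. *Kcnj16*, an inward rectifier potassium channel subunit of the renal tubule, had 60.3, 60.8, 48.2, 88.5 and 37.0 counts in control tumors and 1106, 1017, 670.4, 595 and 718 in clone #4. It rose by 3.79 (SE 0.24, adjusted p = 2.4e-06), and the lowest clone #4 tumor was several-fold above the highest control. *Gc*, the vitamin D-binding protein, had 558, 323, 321, 435 and 417 counts in control and 4012, 7455, 2757, 5600.2 and 5828 in clone #4, a rise of 3.59 (SE 0.24, adjusted p = 3.3e-06). *Atp13a4*, a cation-transporting ATPase of the P5 family, rose by 3.40 (SE 0.21) from 126 to 335 counts to 1673 to 2422 counts, *Gpm6b*, a proteolipid membrane glycoprotein, by 3.02 (SE 0.15) from 634 ± 139.6 to 5064 ± 661, and *Scin*, the actin-severing protein scinderin, by 3.46 (SE 0.22) from 44.9 ± 18.4 to 482 ± 74.9. *Igf2*, an imprinted insulin-like growth factor gene, rose by 4.03 (SE 0.60, adjusted p = 0.00087) from 4.6, 1.8, 7.4, 0 and 1.1 counts to 19.3, 71.7, 41.8, 42.1 and 116. Its level was low in both groups, and its gene model overlaps *Igf2os* on the opposite strand. The rise of *Igf2* stood beside a fall of *Igfbp6*, which encodes an IGF-binding protein with a preference for IGF-II, by 1.26 (SE 0.14, adjusted p = 9.7e-05).

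Further rises were in low-level genes. *Gm45671* went from 0 to 2.3 counts in control tumors to 14.8 to 51.1 in clone #4 (rise of 4.04, SE 0.45), *Flrt3*, an adhesion protein, from 70.8 to 103 to 444 to 651 (2.63, SE 0.15), and *Scn2a*, a sodium channel gene, from 5.8 to 21.3 to 46.8 to 78.6 (2.36, SE 0.31). *Xlr3c* rose by 2.94 (SE 0.78, adjusted p = 0.021), lost its call with a pseudocount of 0.1 or unequal variances (adjusted p = 0.12 for the latter), and belongs to an X-linked family of near-identical copies between which reads may be split. *Gm15401* (2.36, SE 0.38) and *Gm6086* (2.35, SE 0.38) completed the 12 largest rises. Among abundant genes, *Mmp10*, a secreted matrix metalloproteinase, rose by 2.03 (SE 0.11, adjusted p = 1.2e-06), from 3089, 2802, 3517, 3152 and 3203 counts to 13472, 11176, 16035, 10146 and 14524. *Selenop*, the selenium transport protein and one of the most abundant transcripts of these tumors, rose by 1.07 (SE 0.13) from 153147 ± 11163 to 325706 ± 55601 counts. *Gaa*, the lysosomal glucosidase, rose by 1.12 (SE 0.08), *Ccbe1*, a secreted factor of lymphatic growth, by 1.13 (SE 0.12), and *Myo7b*, a myosin of the brush border, by 1.73 (SE 0.22).

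Epithelial genes changed in both directions. Of 22 tested, 3 were called higher and 7 lower, against 7.95% and 10.9% of all genes, with a median log2 difference of -0.25. *Epcam*, an epithelial adhesion molecule, rose by 1.53 (SE 0.31, adjusted p = 0.055 with unequal variances) from 160 ± 87.8 to 422 ± 88.8 counts, *Cldn1* by 0.71 (SE 0.12) and *Cldn3* by 0.57 (SE 0.07), both claudins of tight junctions. *Krt20*, a keratin of intestinal and urothelial epithelia, had 145, 367, 133, 274 and 130.1 counts in control and 2.9, 1.9, 1.0, 6.8 and 21.2 in clone #4, and fell by 5.20 (SE 0.59). *Krt7* fell by 3.21 (SE 0.64) and *St14*, a membrane serine protease, by 1.82 (SE 0.26), whereas *Cdh1*, or E-cadherin, did not pass the test (log2 difference -0.08). *S100a4*, a calcium-binding protein of the mesenchymal list, fell by 1.69 (SE 0.19).

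Matrix remodeling and growth factor genes were called in both directions. *Mmp19* fell by 1.89 (SE 0.21, adjusted p = 9.4e-05) while *Mmp10* rose. In all, 4 of 20 metalloproteinase and inhibitor genes were called lower, against 10.9% of all genes. That count dropped to 1 without tumor 2, 3, 5 or 9 and to 2 without tumor 6, 8 or 10. *Ltbp1*, which stores latent TGF-beta in matrix, fell by 3.26 (SE 0.39) from 333 to 35.6 counts, and *Bmp7*, a morphogen of kidney development, fell by 2.58 (SE 0.51) from 120 to 18.8. Of 31 genes of the TGF-beta pathway 4 were called lower and 2 higher, near the 10.9% and 7.95% of all genes. The 2 higher became 1 without tumor 2, 4, 5, 6, 7 or 8. *Itga1*, a collagen-binding integrin chain, rose by 0.90 (SE 0.11) and *Itgb5*, a vitronectin-binding chain, fell by 0.62 (SE 0.09). Of the 17 genes tested from the study's angiogenesis list, *Vegfb* rose by 0.40 (SE 0.07), and *Pdgfa* and *Pdgfb* fell by 0.82 (SE 0.09) and 0.38 (SE 0.09). Those 3 calls are near the 7.95% higher and 10.9% lower of all genes, and the list median was 0.09.

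**Figure D3:**
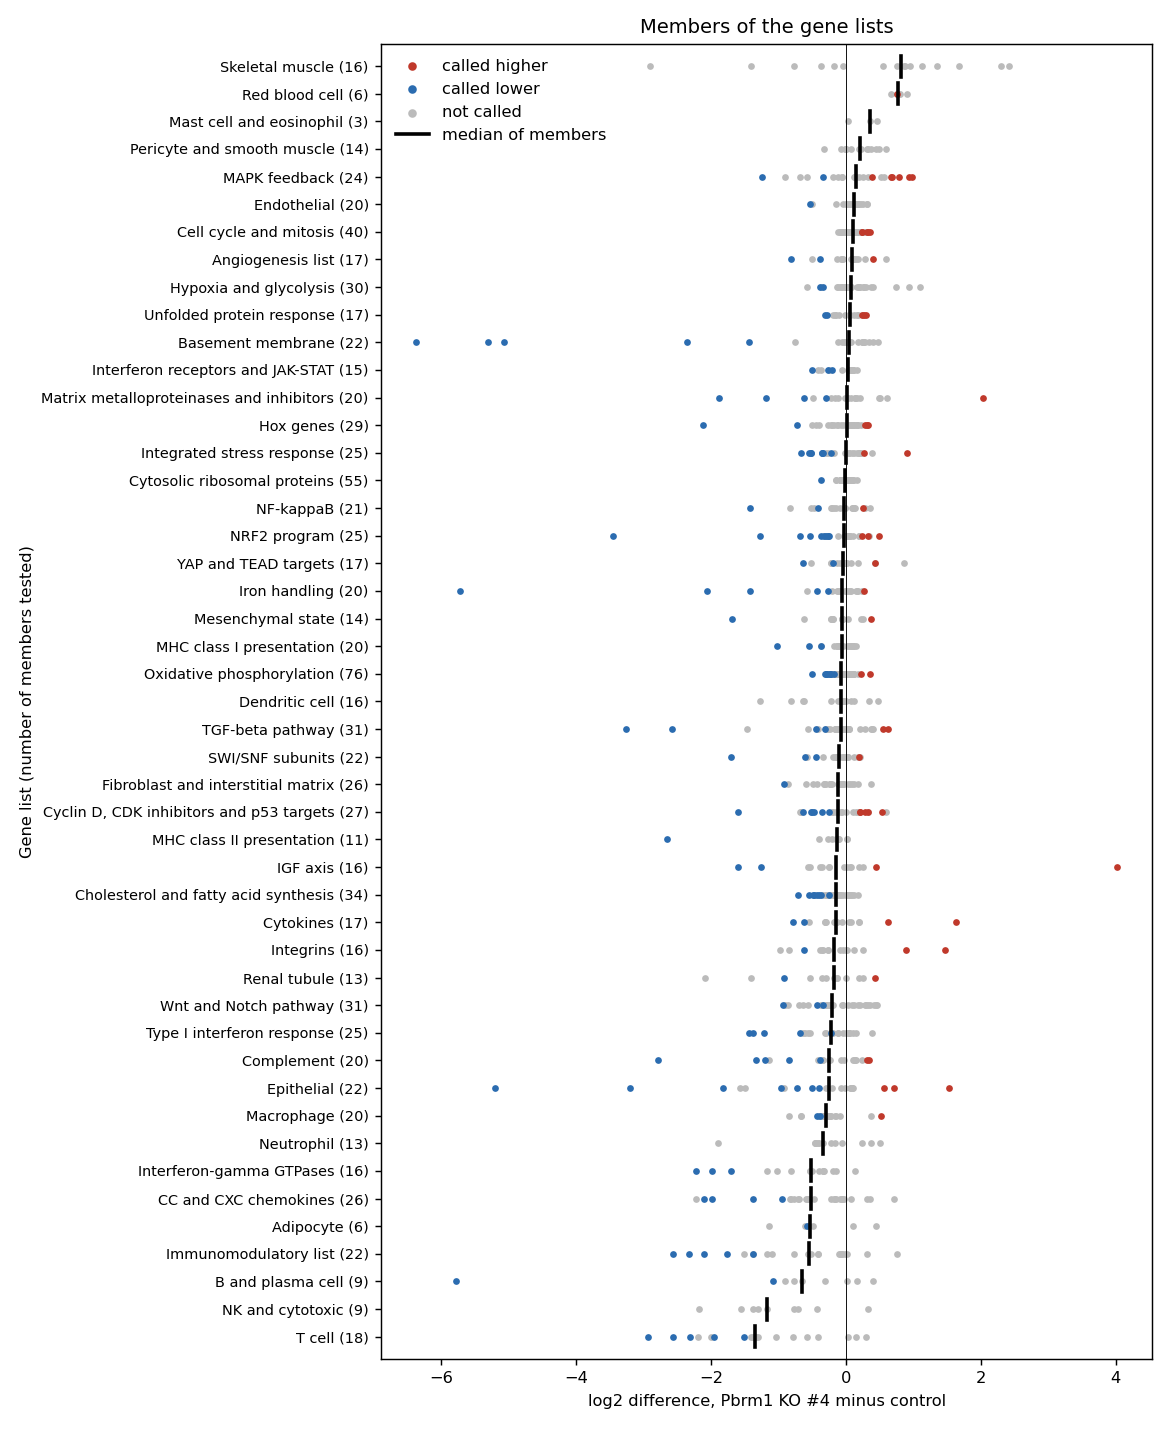
Log2 difference, clone #4 minus control (x), of every tested member of 47 gene lists (y, number of members tested in brackets), with the list median as a black bar. List medians run from -1.35 for T cell genes to 0.81 for skeletal muscle genes, and no skeletal muscle gene was called.

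Several T cell genes fell in clone #4 tumors. T cells recognize antigen through a receptor that signals through CD3 chains and the kinase ZAP70. In bulk tumors, fewer cells of a type and less RNA per cell cannot be told apart. *Zap70* had 131, 190.2, 122, 249.9 and 86.7 counts in control tumors and 14.5, 34.4, 10.9, 13.7 and 26.7 in clone #4, and fell by 2.93 (SE 0.36, adjusted p = 0.0002) without overlap. Its order among control tumors was not that of the CD3 chains. Tumors 2 and 4 were highest for *Zap70*, as for *Serpina12* and *Gsta3*, whereas tumor 2 was the lowest control for *Cd3d* (5.3) and *Cd3g* (18.5). Which cells carried the *Zap70* reads was not tested. *Cd3g*, a CD3 chain, had 181, 18.5, 41.7, 56.0 and 62.4 counts in control and 8.7, 16.2, 7.0, 9.1 and 12.3 in clone #4, and fell by 2.32 (SE 0.49, adjusted p = 0.0068). The groups of *Cd3g* were close, with control tumor 2 at 18.5 and clone #4 tumor 7 at 16.2. *Cd8a*, the coreceptor of cytotoxic T cells, had 163.6, 17.6, 30.6, 44.8 and 82.5 counts in control and 1.9, 22.9, 4.0, 4.6 and 25.6 in clone #4, and fell by 2.56 (SE 0.72, adjusted p = 0.028) with overlap. Its call was lost without tumor 1, 5, 6, 8 or 9, with an adjusted p of up to 0.068.

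Of 18 T cell genes tested, 5 were called lower, against 10.9% of all genes, and none higher, and the median log2 difference was -1.35. That count was 3 without tumor 1, 5, 6, 8 or 9 and 1 with the test of unequal variances. Summed over the 19 T cell genes in the table, control tumors ranged from 1354 to 3495 normalized counts and clone #4 tumors from 1377 to 2524, so the sums overlapped. Without the 4 most abundant of them (*Thy1*, *Lck*, *Cd4* and *Cd247*) the sums were 357 to 1375 in control and 81.1 to 325 in clone #4 and did not overlap. This separation depended on *Zap70*, which made up 190.2 of the 357 counts of control tumor 2, the lowest control sum. It therefore adds nothing to the fall of *Zap70* itself. Tumor 1 was the highest control tumor in 16 of the 18 genes, the exceptions being *Zap70* and *Thy1*. *Cd4* (log2 difference -0.42, SE 0.32) and *Thy1* (0.15), which other cells also express, did not pass the test. None of the 9 natural killer and cytotoxic genes tested was called by limma or edgeR, 2 had an unadjusted p under 0.05, and their median was -1.17. Without tumor 2 or 10, 2 were called lower. *Ctsw*, a cathepsin of cytotoxic lymphocytes, had 68.6 ± 37.5 counts in control and 27.1 ± 17.6 in clone #4 (log2 difference -1.37, SE 0.46, adjusted p = 0.059). The study's list of immunomodulatory genes had 5 of 22 members called lower (*Cd8a*, *Ctla4*, *Cxcl9*, *Pdcd1* and *Cxcl10*), none higher and a median of -0.55. The count was 3 without tumor 1, 6 or 9 and 2 without tumor 8, and 1 member was called higher without tumor 6. The study compiled this list from expression profiles of other cancers.

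*Cd79a*, a signaling chain of the B cell receptor, had 24.4, 374, 160.4, 219.6 and 76.1 counts in control tumors and 1.0, 2.9, 0, 1.1 and 2.2 in clone #4, and fell by 5.78 (SE 0.65, adjusted p = 0.00012). Tumor 1, the highest control in most T cell genes, had the lowest *Cd79a* of the controls, and tumors 2 and 4 the highest, as they did for *Zap70*. Of 9 B and plasma cell genes tested, 2 were called lower, against 10.9% of all genes, and none higher, with a median of -0.64. The other was *Cd79b*, the partner chain of *Cd79a*, which fell by 1.08 (SE 0.29, adjusted p = 0.021). Its call was lost without tumor 1, 3, 8 or 9 (adjusted p of up to 0.055) and with unequal variances (0.051). *Ms4a1*, the B cell antigen CD20, had 5.3 to 20.2 counts in control and 7.8 to 16.9 in clone #4 and did not pass the test (log2 difference 0.16, SE 0.36). *Ighm*, the mu heavy chain, had 355.8 to 2192 counts in control and 413 to 823 in clone #4 (-0.77, SE 0.44, adjusted p = 0.26), again highest in tumor 1.

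Some interferon response genes fell. Interferons act through receptors that activate JAK kinases and STAT transcription factors, and type II interferon induces the T cell chemoattractants *Cxcl9* and *Cxcl10* and a family of antimicrobial GTPases. *Cxcl10* had 344, 139, 172, 185 and 221 counts in control tumors and 43.4, 92.7, 83.6, 78.5 and 104 in clone #4, and fell by 1.38 (SE 0.27, adjusted p = 0.0048) without overlap. *Cxcl9* had 1290.5, 128, 240.2, 251 and 301 counts in control and 49.2, 133, 48.7, 39.8 and 152 in clone #4, and fell by 2.10 (SE 0.57, adjusted p = 0.024). Tumor 1 was far above the other controls for *Cxcl9*, the groups overlapped, and the call was lost without tumor 6, 8 or 9 (adjusted p of up to 0.058). *Xcl1*, a lymphocyte chemokine, fell by 1.98 (SE 0.49). Of 26 chemokine genes 4 were called lower and none higher, against 10.9% and 7.95% of all genes.

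The GTPase gene *Tgtp2* had 1262, 284, 339, 532 and 529 counts in control tumors and 84.9, 133, 56.7, 97.8 and 236 in clone #4, and fell by 2.22 (SE 0.42, adjusted p = 0.0037). *Tgtp1*, a near-identical copy with which reads may be shared, fell by 1.71 (SE 0.45, adjusted p = 0.022), with an adjusted p of 0.052 without tumor 8. *Gbp10* fell by 1.99 (SE 0.51), so that 3 of 16 interferon-gamma GTPase genes were called lower, against 10.9% of all genes. None was called higher, and the median was -0.51. In all 16, tumor 1 was the highest control. Of 25 type I interferon response genes, 5 were called lower, against 10.9% of all genes, and 0 higher. Without tumor 10, 11 were called lower, while 1 was called higher without tumor 4 or 7. *Ifit3* had 556, 528, 446, 555 and 561 counts in control and 197, 173, 182, 196 and 282 in clone #4, and fell by 1.38 (SE 0.14, adjusted p = 4.3e-05). Its neighbor and close copy *Ifit3b* fell by 1.44 (SE 0.29), and *Zbp1*, a sensor of nucleic acids, by 1.22 (SE 0.23).

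With the test of unequal variances the calls of *Cd8a*, *Cxcl9*, *Cd3g*, *Xcl1*, *Gbp10*, *Tgtp1* and *Ctla4* were lost (adjusted p of 0.058 to 0.086).

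Upstream in the pathway the differences were smaller. *Ifngr2*, a chain of the type II interferon receptor, fell by 0.26 (SE 0.07, adjusted p = 0.02, but 0.054 with unequal variances), and the type I receptor chains *Ifnar2* and *Ifnar1* by 0.50 (SE 0.07) and 0.21 (SE 0.06). These receptor genes lie on chromosome 16 between 90 and 95 Mb, where 18 of 50 genes were called lower and 3 higher. The median log2 difference of that stretch was -0.22, close to the falls of *Ifngr2* and *Ifnar1*. Its part in the receptor falls was not tested. The call of *Ifnar1* was lost without tumor 1 or 3 (adjusted p of up to 0.054). *Ifngr1*, *Jak1*, *Jak2* and *Irf1*, named for their place in the pathway after their values were seen, did not pass the test, with log2 differences of 0.03, 0.09, 0.11 and -0.06.

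The promoters of genes called lower in the type I interferon, GTPase and chemokine lists were searched for the letters GAAA, any 2 bases and GAAA on both strands, the core of the element to which interferon-activated factors bind. RefSeq promoters (GRCm38.p6, 250 bases before to 50 after a start) were at hand for 10 of these 12 genes, and 5 held a match before the start, against 3.44% of all 32851 promoters of the same length that held it anywhere in their 300 bases. Of 36 members of the same lists that were not called lower and had a promoter, 15 held a match before the start as well, so the match did not set the lower genes apart. The 5 genes include the copied pairs *Ifit3* and *Ifit3b*, and *Tgtp1* and *Tgtp2*. The matches are shown to locate the element in the genes described above. Each run of 30 bases is written 5′ to 3′ on the strand of its gene, with the match in capitals. A match describes the letters only and is no shown site of binding.
Cxcl10 (chr5:92349083-92349112, minus strand): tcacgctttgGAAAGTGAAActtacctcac
Tgtp1 (chr11:48992304-48992333, minus strand): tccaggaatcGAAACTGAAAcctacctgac
Tgtp2 (chr11:49064263-49064292, minus strand): tccaggaatcGAAACCGAAAcctactctga
Ifit3 (chr19:34583363-34583392, plus strand): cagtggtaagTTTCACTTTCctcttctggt
Ifit3 (chr19:34583397-34583426, plus strand): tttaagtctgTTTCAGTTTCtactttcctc
Ifit3b (chr19:34607759-34607788, plus strand): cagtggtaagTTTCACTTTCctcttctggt
Ifit3b (chr19:34607793-34607822, plus strand): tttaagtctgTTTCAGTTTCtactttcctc
The runs of *Ifit3* and *Ifit3b* are the same letters.

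Of 20 MHC class I pathway genes, 3 were called lower and none higher, near the 10.9% of all genes called lower: *Tapbpl*, a peptide editor, fell by 1.02 (SE 0.10), *Psmb10*, an immunoproteasome subunit, by 0.55 (SE 0.13, adjusted p = 0.078 with unequal variances) and *Tapbp*, the peptide-loading protein tapasin, by 0.37 (SE 0.07). Of 11 class II genes, 1 was called lower (2 without tumor 2) and none higher, near the 10.9% of all genes called lower, with a median of -0.13. That gene, *H2-Oa*, which restrains peptide loading on class II, had 340.0, 385, 359.8, 366 and 289.7 counts in control and 42.4, 59.2, 41.8, 55.8 and 80.2 in clone #4, and fell by 2.65 (SE 0.18, adjusted p = 3.4e-06). Its control values did not show the excess of tumor 1 seen in the T cell genes.

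**Figure D4:**
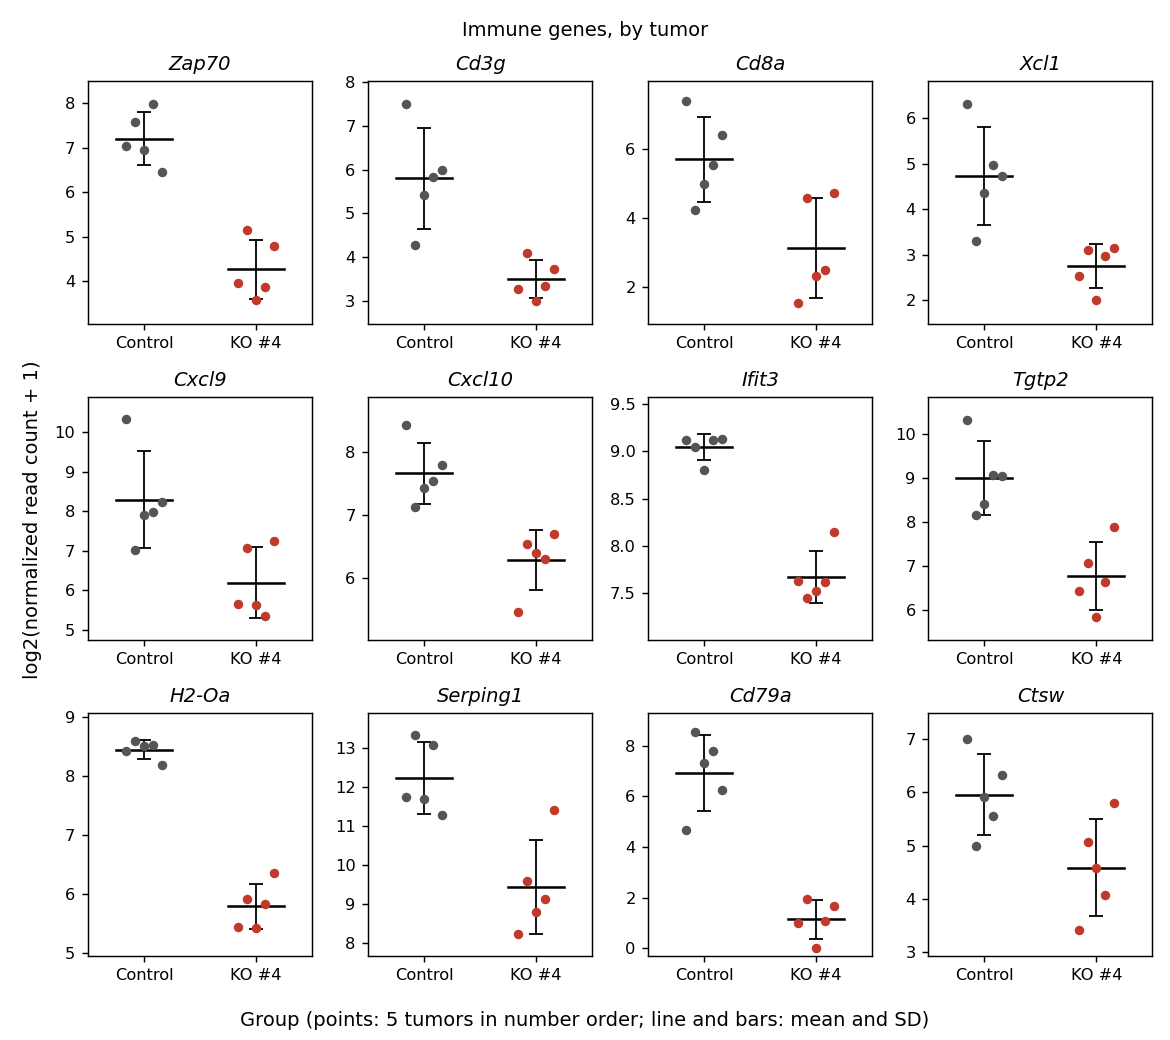
Log2 of the normalized read count plus 1 (y) in each of 5 control and 5 clone #4 tumors (x) for 12 immune genes, with mean and SD. *Zap70*, *Cxcl10*, *Ifit3* and *H2-Oa* separate the groups, whereas *Cd8a*, *Cxcl9* and *Ctsw* overlap, and *Cxcl9* is highest in control tumor 1.

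Complement genes differed in both directions. *Serping1*, the inhibitor of the first complement component, had 3418, 10369, 3324, 8664 and 2491 counts in control tumors and 304, 774, 449, 562 and 2735 in clone #4, and fell by 2.79 (SE 0.56, adjusted p = 0.0051). Tumor 10 alone of clone #4 reached the control range. *C2* fell by 1.34 (SE 0.18) and *C4b* by 1.19 (SE 0.29), whereas *C1ra* and *C1s1*, the proteases of the first component, rose by 0.35 (SE 0.08) and 0.31 (SE 0.07). With unequal variances the calls of *C4b* and *C1ra* were lost (adjusted p = 0.066 and 0.056). In all, 5 of 20 were called lower (8 without tumor 2) and 2 higher, against 10.9% and 7.95% of all genes.

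Markers of other cells were examined next. Of 20 macrophage genes, 1 was called higher and 2 lower, near the 18.9% of all genes called, the latter ranging from 1 to 7 with 1 tumor left out (7 without tumor 2, 4 without tumor 4, and 1 without tumor 1, 3, 5 or 6). Their summed level was 186268 to 280074 in control and 175544 to 208040 in clone #4. In 18 of the 20 the mean was lower in clone #4, and the list median was -0.29. *Trem2*, a lipid receptor, fell by 0.42 (SE 0.12) and *C1qc*, a chain of complement C1q, by 0.39 (SE 0.10), whereas *Cd14*, the lipopolysaccharide coreceptor, rose by 0.52 (SE 0.10). The call of *Trem2* was lost without tumor 1, 3, 5 or 6 (adjusted p of up to 0.06), and both falls were lost with unequal variances (adjusted p = 0.095 and 0.075). None of 13 neutrophil, 16 dendritic cell, 14 pericyte, 3 mast cell and eosinophil and 16 skeletal muscle genes was called by limma. At an unadjusted p under 0.05 the numbers were 1, 0, 2, 0 and 2, and edgeR called 1 skeletal muscle gene and none of the others. With 1 tumor left out, 2 neutrophil genes were called lower without tumor 10, 2 pericyte genes higher without tumor 3 or 6, and 1 muscle gene lower without tumor 1, 5 or 10. Skeletal muscle genes summed to 370 to 813 counts in control tumors, 226 to 1946 in clone #4 tumors 6 to 9 and 4987 in tumor 10. Of 20 endothelial genes, *Eng*, a coreceptor of the TGF-beta family, was called lower, and of 26 fibroblast and matrix genes *Fbln1*, a matrix fibulin, fell by 0.92 (SE 0.12). The fibroblast genes summed to 188279 to 260356 counts in control and 96896 to 440831 in clone #4, lowest in tumor 6 and highest in tumor 10. The 3 keratinocyte genes in the table summed to at most 14.0 counts in any tumor. The part of muscle tissue and of tumor 10 in the results above was not tested beyond leaving that tumor out.

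Growth signaling and stress genes formed the last groups. Their counts stand beside 7.95% of all genes called higher and 10.9% called lower. Of 24 genes that MAPK signaling induces or that feed into it, 6 were called higher and 2 lower, the latter being 1 without tumor 1, 2, 5, 6, 7 or 9. *Met*, the receptor of hepatocyte growth factor, had 3198, 2810.5, 2884, 3187 and 3096 counts in control tumors and 6371, 6660.4, 5954, 5565 and 5464 in clone #4, a rise of 0.98 (SE 0.07, adjusted p = 3.4e-06). *Dusp6*, the phosphatase that dampens ERK, rose by 0.94 (SE 0.09) from 4571 ± 594 to 8751 ± 782 counts, and *Spry2* and *Etv4* by 0.79 (SE 0.10) and 0.68 (SE 0.13), whereas the immediate early phosphatase *Dusp1* fell by 1.24 (SE 0.20).

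*Gdf15*, a secreted stress cytokine, had 4302, 3822, 3559, 4418 and 4176 counts in control tumors and 1176, 1618, 1195, 1160.5 and 1613 in clone #4. It fell by 1.60 (SE 0.11, adjusted p = 3.8e-06), and the groups were far apart. It belongs to a list of cyclin, CDK inhibitor and p53 target genes in which 7 of 27 were called lower, among them *Bax* (fall by 0.63, SE 0.13), and 5 higher, among them *Pmaip1* (rise of 0.53, SE 0.11). The count of 5 was 2 without tumor 2, 7 or 8 and 3 without tumor 3, 5, 6 or 10. Of 25 NRF2 program genes, 9 were called lower, led by *Gsta3*, with *Nqo1*, a quinone reductase, falling by 0.68 (SE 0.09), and 3 higher. Of 34 genes of cholesterol and fatty acid synthesis, 8 were called lower and none higher (1 higher without tumor 2), with *Fdps* and *Sqle*, enzymes of the sterol pathway, falling by 0.71 (SE 0.12) and 0.55 (SE 0.08). In the integrated stress response, 8 of 25 were called lower and 2 higher. *Cth*, an enzyme of cysteine synthesis, fell by 0.66 (SE 0.08), *Shmt2*, of mitochondrial one-carbon metabolism, fell by 0.51 (SE 0.07), and *Pycr1*, of proline synthesis, rose by 0.90 (SE 0.09). Of 40 cell cycle genes 5 were called higher and none lower, but this count was 8 without tumor 10, 2 without tumor 1, 2, 7 or 9, and 1 without tumor 4, 5, 6 or 8. Of 55 cytosolic ribosomal protein genes only *Rps19* was called (fall by 0.37, SE 0.09), and it was not with unequal variances (adjusted p = 0.053).

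Called genes were spread over all chromosomes, with the largest shares of falls on chromosomes 16 and 15. On chromosome 16, 119 of 496 genes (24.0%) were called lower and 17 (3.43%) higher, with a median log2 difference of -0.14. On chromosome 15 the numbers were 137 lower (22.9%) and 37 higher (6.19%) of 598, with a median of -0.12. On the other autosomes and the X chromosome the medians lay between -0.06 and 0.06. Within chromosome 15 the stretch from 95 to 100 Mb had 36 of 71 genes lower and a median of -0.26, the lowest of the 5-Mb stretches with at least 20 genes. *Hoxc4*, *Krt7* and *Igfbp6* lie on chromosome 15, and *Ifnar1*, *Ifnar2*, *Ifngr2* and *Itgb5* on chromosome 16. Copy number was not measured, so its part in these shifts was not tested.

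Whether a change was particular to clone #4 was asked by testing it directly against the 5 tumors of clone #18, with no control tumor in the contrast. Of 16432 genes, 870 (5.29%) differed between the clones, 414 higher and 456 lower in clone #4, and 402 of them were also called between clone #4 and control. In 310 of these 402 the clone #4 tumors differed from clone #18 in the same direction as from control, and in 92 in the opposite direction. Both contrasts hold the same 5 clone #4 tumors and both were used to choose these genes, which favors the same direction. The split is therefore a description. *Pbrm1* itself did not pass the test between the clones (log2 difference -0.05, adjusted p = 0.8), with 2572 to 3138 counts in clone #18.

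Several genes were higher in clone #4 than in clone #18. *Kcnj16* had 135, 87.4, 181, 115 and 91.8 counts in clone #18 tumors 11 to 15, so that all 5 clone #4 tumors lay above them (difference 2.75, adjusted p = 2.6e-06). *Flrt3* had 111 to 155 counts in clone #18 (difference 2.07, adjusted p = 3.1e-07). *Xlr3c* was at 0 to 2.5 counts in clone #18 (difference 5.57, adjusted p = 0.00016), below most control tumors too, and *Gm14124* at 3.1 to 11.2 (difference 2.64). *Elovl7*, a fatty acid elongase, was called lower than control in clone #4 (fall by 0.89, SE 0.16) but stood at 213 to 375 counts against 17.0 to 64.9 in clone #18 (difference 2.85, adjusted p = 4.4e-06). *Eva1c* showed the same order (difference 2.91), though its call against control was lost without tumor 2, 3 or 6 (adjusted p of up to 0.055), and so did *Gm14406* (difference 2.39).

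Losses particular to clone #4 were as distinct. *Zfp182*, a zinc finger gene on the X chromosome, had 377, 354, 340.3, 349.6 and 363 counts in control tumors, 48.2, 56.4, 66.6, 132 and 69.1 in clone #4, and 466, 388, 376, 368 and 415 in clone #18. It was lower in clone #4 than in clone #18 by a log2 difference of -2.51 (adjusted p = 4.7e-07), and the ranges of control and clone #18 tumors overlapped. *Aox3*, an aldehyde oxidase, had 523 to 728 counts in control, 74.5 to 176 in clone #4 and 494 to 1064 in clone #18 (difference -2.67, adjusted p = 2.5e-06). *Pak6*, a p21-activated kinase, had 30.6 to 46.4 in control, 0 to 3.9 in clone #4 and 12.0 to 45.5 in clone #18 (difference -3.14, adjusted p = 0.0002). *Rasl10a*, a Ras-like GTPase gene, differed by -2.80 (adjusted p = 0.0061), with the groups in the same order. The call of *Rasl10a* against control was lost with a pseudocount of 0.1 or unequal variances (adjusted p = 0.094 for the latter). *Cdhr1*, a photoreceptor cadherin, had 1472 to 2883 counts in clone #18, above all control tumors (561 to 1222), whereas clone #4 lay below them (213 to 527; difference -2.68, adjusted p = 4.4e-06).

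**Figure D5:**
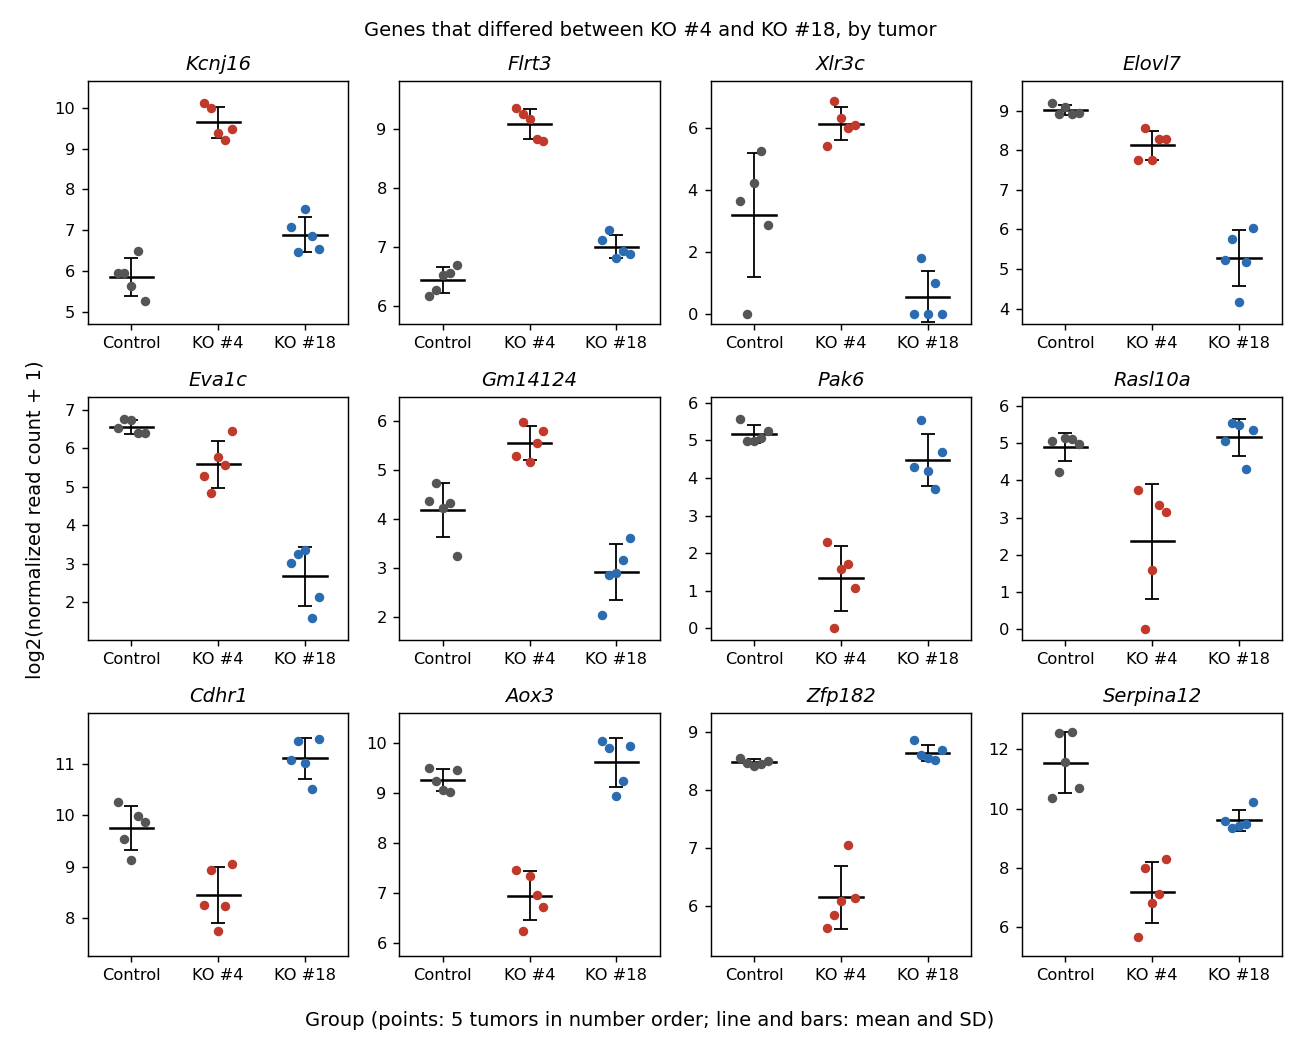
Log2 of the normalized read count plus 1 (y) in each of 5 control, 5 clone #4 and 5 clone #18 tumors (x) for 12 genes that differed between the clones, with mean and SD. *Zfp182*, *Aox3* and *Pak6* are low in clone #4 alone, *Kcnj16* and *Flrt3* are highest there, and *Cdhr1* moves to opposite sides of control in the clones.

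Several of the strongest changes of clone #4 were present to another extent in clone #18. *Gc* averaged 411 counts in control, 5131 in clone #4 and 12470.4 in clone #18 (clone #4 minus clone #18 -1.32, adjusted p = 0.0027), and *Atp13a4* 201, 2037 and 5162 (-1.35, adjusted p = 0.00024). *Serpina12* averaged 3629.7 counts in control, 173 in clone #4 and 796 in clone #18 (-2.43, adjusted p = 0.0044), and *Gsta3* 2969, 296 and 1329 (-2.26, adjusted p = 0.0084). For *Nxf3*, *Col4a3*, *Col4a4*, *Cd79a*, *Zap70*, *Cxcl10* and *H2-Oa* no difference between the clones passed the test. Of the 93 genes that fell more than 8-fold in clone #4, 10 differed between the clones.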

How the data were processed

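Bulk tumor RNA-seq of 15 Renca tumors was analysed from 1 deposited table. Per the submitters' processing notes, TopHat2, HTSeq and DESeq were used with mm10; versions are not given in the sources used here. The authors deposited normalized read counts per gene (gene counts divided by a size factor per tumor, hence signal values and not raw counts), rounded to 0.1. Whole reads were recovered from each column's step between values: 100% of values up to 8000 were whole multiples within 0.1.

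Genes with a mean of at least 10 over the 10 tumors were tested on log2(value + 1) with limma 3.58.1 (variance trend, R 4.3.3), two-sided, with Benjamini-Hochberg adjustment over 16432 genes at 0.05. Log2 differences understate the change of low genes. Clone #4 minus clone #18 came from a limma fit of all 15 tumors. A count test on the recovered reads (edgeR 4.0.16, quasi-likelihood, TMM) called 3084 genes, 2922 of them shared with limma. DESeq2 1.42.0, other pseudocounts, filters and scalings, a test with unequal variances and each left-out tumor were alternatives. Tests were first tried on simulated counts. The labels do not say that tumors came from separate cultures, so p-values measure the spread between tumors.

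Named genes were *Pbrm1*, the 12 largest rises and falls among called genes without overlap between groups, the 8 largest of each with a mean of at least 1000, up to 3 called rises and 3 falls in each gene list (the 2 most abundant members where none was called), and the 6 largest differences each way between the clones. Other list members were named for their role after their values were seen. The genes, lists and comparisons were chosen with earlier results of these data known, and 3 list symbols were changed to the table's spelling once the table was seen. Positions are from GENCODE M21 (GRCm38, the build also called mm10), found for 98.5% of genes. The strand of counting is not given, so genes that overlap on opposite strands cannot be told apart, and genes with near-identical copies are uncertain. At 37763097 to 49099168 reads per tumor, counting error was small beside the spread between tumors except in genes with few reads, and floors cover counting error only. Some list members that were called or tested are not reported here.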

Additional observations from a re-analysis of the deposited data

Results flagged for a closer look

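In 28 of 357 groups of 5 tumors (179 named genes in control or clone #4), the highest or lowest tumor stood apart from the other 4 by more than Dixon's limit for its group. For independent, normally distributed values the limit flags about 1 in 20 groups, or 17.85 of 357. It was applied here to normalized read counts without the log, and the genes share the same 10 tumors. The 17.85 is therefore no measure of chance for these data, and the 28 are a description. Of the 28, 10 were tumor 10 and 5 tumor 1. Tumor 10 was the highest clone #4 tumor, at 15.6 for *Lamb3*, 21.2 for *Krt20*, 281.8 for *Ifit3*, 505.7 for *Zbp1*, 75.7 for *Ltbp1*, 524.7 for *Wnt7b*, 1608.6 for *Lcn2*, 2734.8 for *Serping1* and 2772.6 for *Ttn*, and was the lowest clone #4 tumor, at 7828.9 for *Plin4* normalized read counts. Tumor 9 was the highest clone #4 tumor, at 132.0 for *Zfp182*, and was the lowest clone #4 tumor, at 4802.6 for *Ifnar1* and 1129.8 for *Trp53* normalized read counts. Tumor 7 was the highest clone #4 tumor, at 47.8 for *Siglecf* and 1549.0 for *Smad3* normalized read counts. Tumor 6 was the lowest clone #4 tumor, at 2809.1 for *Des* normalized read counts. Tumor 1 was the highest control tumor, at 1290.5 for *Cxcl9*, 1261.5 for *Tgtp2*, 181.0 for *Cd3g*, 112.6 for *Igf2bp3* and 200.8 for *Ttn* normalized read counts. Tumor 2 was the highest control tumor, at 8184.8 for *Mmp2* and 669.4 for *Znrf3*, and was the lowest control tumor, at 17.6 for *Rasl10a* normalized read counts. Tumor 4 was the highest control tumor, at 77.3 for *Scin* and 2341.9 for *Pmaip1* normalized read counts. Tumor 5 was the highest control tumor, at 2962.6 for *Igf1* and 9478.9 for *Tnfaip2* normalized read counts.

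For 48 named genes the difference from control was not the same in both clones, by the direct limma contrast of clone #4 minus clone #18 (log2, adjusted p under 0.05, with 5.29% of all genes called). Some of these genes were named by this same contrast and others by large changes from control, so their number is a description. The value was higher in clone #4 for *Kcnj16* (2.75), *Scin* (1.07), *Xlr3c* (5.57), *Flrt3* (2.07), *Gm6086* (2.05), *Mmp10* (0.49), *Myo7b* (0.90), *Ccbe1* (0.60), *Gpr141* (0.89), *Il1b* (1.06), *Il34* (0.57), *Itgb6* (1.35), *Cldn1* (0.53), *Igf2bp3* (1.69), *Pycr1* (0.48), *Cth* (0.56), *Shmt2* (0.32), *Dusp6* (0.60), *Tead4* (0.43), *Vcam1* (1.10), *Casq1* (1.17), *Eva1c* (2.91), *Elovl7* (2.85), *Gm14124* (2.64) and *Gm14406* (2.39). It was lower in clone #4 for *Gc* (-1.32), *Atp13a4* (-1.35), *Serpina12* (-2.43), *Gsta3* (-2.26), *Akr1c18* (-1.47), *Trem2* (-0.37), *Des* (-0.45), *Pfkm* (-0.32), *Atp5g2* (-0.32), *Gdf15* (-0.97), *Igfbp6* (-0.86), *Nupr1* (-0.33), *Gclm* (-0.52), *Nqo1* (-0.34), *Wnt7b* (-1.24), *C2* (-0.83), *Hoxc9* (-0.85), *Plin4* (-0.62), *Pak6* (-3.14), *Rasl10a* (-2.80), *Cdhr1* (-2.68), *Aox3* (-2.67) and *Zfp182* (-2.51).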

How the results depend on the processing

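The number of genes called between clone #4 and control was 3102 and lay between 2072 (unequal variances) and 3805 (DESeq2 on the recovered reads) under the other settings, and between 2279 and 3084 with 1 tumor left out. Quantile normalization moved the share of calls that were higher from 42.1% to 51.9%. The number called between the clones was 870, 848 by edgeR and 638 to 902 with 1 tumor left out. *Pbrm1* was lower by a log2 difference of -1.71 to -1.69 under the other settings, and of -1.78 to -1.67 with 1 tumor left out.

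Of 166 named genes that were called, 111 kept their call under every setting and left-out tumor, none changed direction, and 50 lost their call under unequal variances, where the NRF2 list had 5 members lower, the chemokine list 2 and the interferon-gamma GTPase list 1. Direction turned only in uncalled genes: *Il1b* (log2 difference -0.05) was at 0.053 by edgeR, 0.046 by DESeq2 and -0.28 to 0.14 with 1 tumor left out. In the same way *Cd24a* ranged from -0.031 to 0.044, *Tcf4* from -0.072 to 0.0022, *Kit* from -0.21 to 0.40 and *Ttn* from -0.048 (without tumor 10) to 1.90. The cause was not tested. No paired analysis was possible because no label links tumors of different groups, whose numbers only name mice within a group. The scale rests on the authors' size factors, and differences common to all genes are not visible. With 5 tumors of 1 line per group, clone and genotype cannot be told apart.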
